A study of Mus musculus with 4 samples.

Results

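Fc receptors bind the constant part of antibodies, and B cells carry several of them beside receptors that damp the B cell receptor. The genes described here are 10 of the 31053 genes in the count table, chosen by name: the Fc receptor and Fc receptor-like genes Fcer2a, Fcgr2b, Fcrl1, Fcrl5, and Fcmr, the inhibitory receptor genes Pirb, Siglecg, Cd22, and Cd72, and Ptpn6, which encodes the phosphatase that many of these receptors recruit. All 10 were found in the table. The cells were B cells from the spleen of WT mice, cultured with CpG B ODN 1668, a DNA oligonucleotide that activates Toll-like receptor 9, for 3 days. Bregs-CpG received nothing else, and Bregs-TLR received LPS, PMA, and ionomycin in addition for the last 5 hours, so that CpG was common to both groups and no group of unstimulated B cells was included in the scRNA-Seq samples. There were 2 samples of each group. The sources used here do not say how many mice stood behind each sample.

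The cells carry barcodes whose endings number 4 libraries, 5 to 8, and no label ties an ending to a sample. Each library is therefore described by its own values, in the order of their level, and no test between Bregs-CpG and Bregs-TLR was made. After filtering, 18534 of 19920 cells remained, with 4003 to 5621 cells and 44842982 to 63638158 UMIs (unique molecular identifiers, each standing for 1 captured mRNA molecule) per library. Levels are given as UMIs per 1000000 UMIs of the library (CPM). Median UMIs per cell were 8752, 8785, 10355, and 10077 in libraries 5, 6, 7, and 8. The median share of mitochondrial UMIs was 7.22%, 7.18%, 4.61%, and 4.65%. Mean expression along the table shifted most at the start of library 7, so that libraries 7 and 8 stood apart from libraries 5 and 6 in many genes. Of the barcode sequences, 29 occurred in 2 libraries. All 8 B cell markers were detected in each library, although their summed level was 16401, 17021, 8522, and 8510 CPM. Of the markers of other cells, 4 of 7 T cell genes, 6 of 10 myeloid genes, and 4 of 5 NK cell genes were at 0 in each library, Lyz2, Cd3e, and Nkg7 among them. The 5 dendritic cell markers, of which Siglech was at 0, summed to 4.53, 5.62, 0.597, and 0.569 CPM, the 6 marginal zone markers to 71.7, 71.6, 32.2, and 31.0, the 5 B-1 cell markers, which include Fcrl5, to 225, 208, 170, and 156, and the 7 plasma cell markers to 1614, 1779, 390, and 339. All 4 sums were lowest in libraries 7 and 8, as were the 10 genes described below, but not every marker was. Fcrl5, itself among the 10 genes, gave 192, 174, 95.6, and 82.2 CPM of the B-1 cell sum. The rest of that sum was higher in libraries 7 and 8. Of the plasma cell sum, Mzb1 gave 1441, 1548, 154, and 157 CPM. Derl3 also had libraries 7 and 8 lowest, Sdc1 and Xbp1 had libraries 5 and 6 lowest, and Jchain followed neither pair. Among the marginal zone markers, Cr2 had libraries 5 and 6 lowest. The part of the marginal zone and B-1 cell markers in the order of the 10 genes was not tested. The 5 erythroid markers summed to 4.62, 4.32, 219, and 285 CPM, nearly all from Hbb-bt, whereas Hba-a1 and Hba-a2 were at 0.

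When antigen binds the B cell receptor, the kinase Lyn phosphorylates tyrosine motifs not only in the receptor but also in inhibitory coreceptors. Motifs of the inhibitory kind (ITIMs) then recruit phosphatases: SHP-1, encoded by Ptpn6, acts on proteins, and SHIP-1, encoded by Inpp5d, acts on inositol lipids and is the main partner of the IgG receptor FcγRIIB. Not every gene in the group is inhibitory. CD23 and the IgM receptor bind antibody without an ITIM, FCRL1 carries activating-type motifs, and FCRL5 carries motifs of both kinds.

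In all 10 genes, libraries 7 and 8 were the 2 lowest, but the gap below libraries 5 and 6 ran from 1.55-fold in Fcmr to 44.5-fold in Fcer2a. The gap is the level of the third library over that of the second, from the lowest up. It was at least 2-fold in 7 of the 10 genes, Fcer2a, Fcgr2b, Pirb, Siglecg, Cd22, Cd72, and Ptpn6, and under 2-fold in Fcrl1, Fcrl5, and Fcmr. By the same rule, 25.9% of the 11174 genes with at least 100 UMIs had such a gap. A gap with libraries 7 and 8 lowest was found in 13.6% of the tested genes, and a gap with libraries 5 and 6 lowest in 12.3%. The median gap was 1.47 on the log2 scale over the 10 genes and 0.51 over all tested genes, and libraries 7 and 8 were the 2 lowest in 40.1% of all tested genes. The 10 genes were chosen with earlier results of these data known, so that their excess over all tested genes is a description and no test. The genes nearest the limit were Cd22, at 2.24-fold, above it, and Fcrl1, at 1.96-fold, below it.

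**Figure D1:**
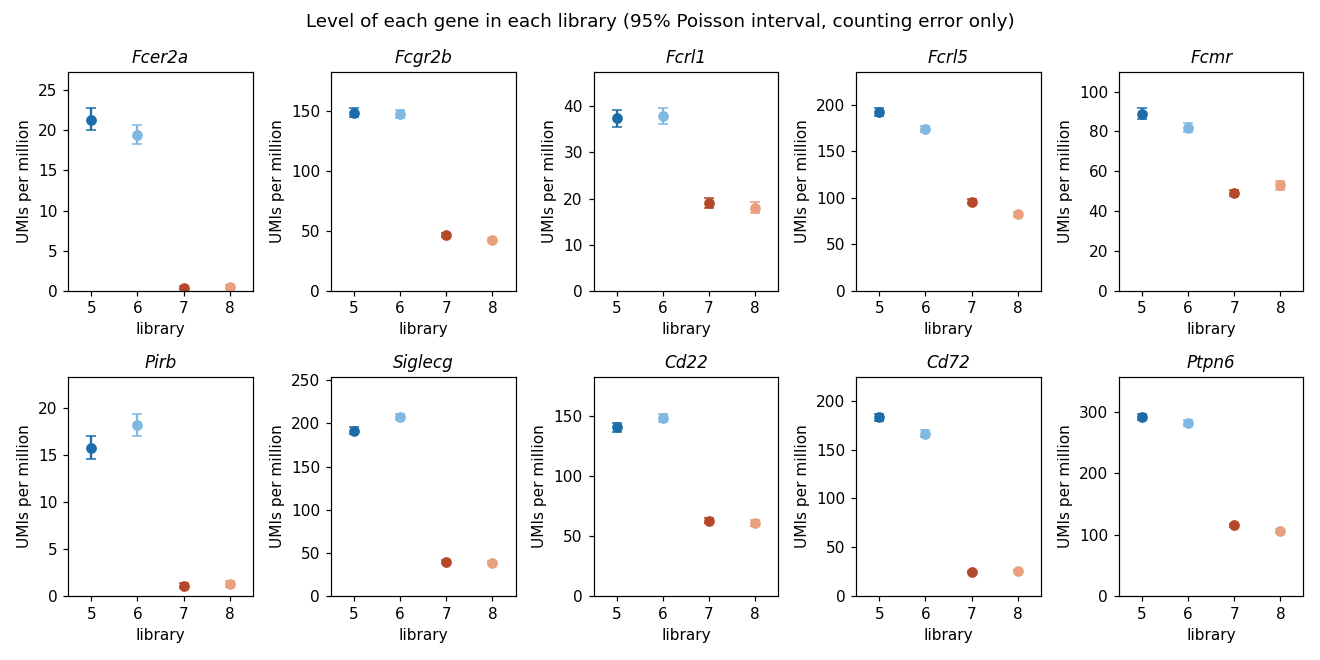
Level of each of the 10 genes (CPM, each axis starting at 0) in libraries 5 to 8, with 95% Poisson intervals that cover counting error only. Libraries 7 and 8 lie below libraries 5 and 6 in every panel, nearest to them in Fcmr and farthest in Fcer2a.

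**Figure D2:**
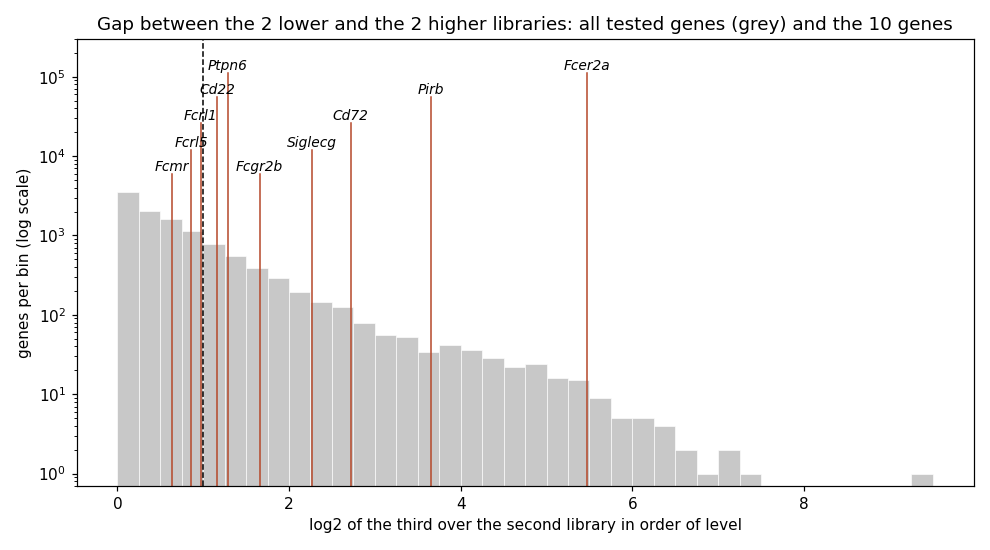
Gap between the second and the third library in order of level (x axis, log2) for the 11174 tested genes (grey bars, number of genes per bin on a log scale) and for the 10 genes (red lines). The dashed line marks the 2-fold limit, which 7 of the 10 genes and 25.9% of all tested genes reached.

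Promoter sequences are shown for the members with the largest gaps, Fcer2a and Pirb, and for Fcmr, which had the smallest. They run from 250 bases before to 50 bases after the start of the transcript (RefSeq, GRCm38.p6), on the minus strand at chr8:3694125-3694424 for Fcer2a (the most upstream of 3 listed starts), on the minus strand at chr7:3720333-3720632 for Pirb, and on the plus strand at chr1:130865527-130865826 for Fcmr. Capitals mark matches to short motifs searched on both strands, the ETS motif GAGGAAG, the octamer ATTTGCAT, the AP-1 motif TGANTCA, the NFAT motif TGGAAA, and the KLF motif CCACCC.
Fcer2a: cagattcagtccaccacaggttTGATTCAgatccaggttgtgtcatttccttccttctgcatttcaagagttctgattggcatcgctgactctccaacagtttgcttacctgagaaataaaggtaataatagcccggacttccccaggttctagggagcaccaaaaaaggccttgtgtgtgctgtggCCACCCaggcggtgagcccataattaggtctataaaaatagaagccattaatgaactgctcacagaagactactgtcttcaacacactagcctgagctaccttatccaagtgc
Pirb: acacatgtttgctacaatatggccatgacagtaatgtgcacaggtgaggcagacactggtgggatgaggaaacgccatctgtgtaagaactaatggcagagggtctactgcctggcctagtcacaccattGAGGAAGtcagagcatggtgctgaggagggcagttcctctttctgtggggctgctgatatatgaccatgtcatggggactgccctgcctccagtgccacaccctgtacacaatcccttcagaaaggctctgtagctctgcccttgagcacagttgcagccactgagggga
Fcmr: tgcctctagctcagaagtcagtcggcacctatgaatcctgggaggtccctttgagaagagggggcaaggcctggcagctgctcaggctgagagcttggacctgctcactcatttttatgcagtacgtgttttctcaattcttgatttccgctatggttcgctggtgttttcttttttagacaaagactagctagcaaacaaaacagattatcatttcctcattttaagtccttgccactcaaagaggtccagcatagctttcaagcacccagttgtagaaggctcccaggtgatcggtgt
The Fcer2a window held 1 AP-1 and 1 KLF match, the Pirb window held 1 ETS match, and the Fcmr window held none of the 5 motifs. Over the 10 genes, the ETS motif occurred in 4 promoters (13.5% of all 27025 promoters in the table), the AP-1 motif in 3 (7.93%), the KLF motif in 4 (30.9%), the NFAT motif in 1 (21.5%), and the octamer in 0 (1.75%). These matches are letters in a window, and binding of a factor was not measured.

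Fcer2a (chromosome 8, 3681737 to 3694175 in GRCm38, minus strand) encodes CD23, the low-affinity IgE receptor, a C-type lectin that marks follicular B cells. Its level was 21.4 CPM in library 5, 19.5 in library 6, 0.346 in library 7, and 0.438 in library 8. Libraries 5 and 6 thus held nearly all Fcer2a, with 958 and 1006 UMIs against 22 and 20 in libraries 7 and 8, and libraries 7 and 8 did not differ beyond counting error. The gap was 5.48 on the log2 scale (95% interval 4.84 to 6.19), larger than that of 99.7% of all tested genes. Even in the libraries where it was high, Fcer2a was found in few cells, 13.7% and 13.1% of them, against 0.374% (95% Clopper-Pearson interval 0.231 to 0.571) and 0.475% (0.286 to 0.740) in libraries 7 and 8. Over all 10 genes, no bound of such an interval lay more than 1.56 percentage points from its share. Genes listed here as partners of CD23 did not show this gap. Cr2, which encodes CD21, was at 10.1, 10.5, 12.6, and 11.5 CPM, and Adam10, the protease that sheds CD23, was at 26.5, 28.8, 19.0, and 18.2. Binding of CD21 to mouse CD23 was not measured. Ighe, the IgE heavy chain, had 9 UMIs in all.

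Fcgr2b (chromosome 1, 170958617 to 170976547, minus strand) encodes FcγRIIB, the inhibitory IgG receptor and the only classical Fcγ receptor usual on B cells. Its level was 149, 148, 46.8, and 42.3 CPM in libraries 5, 6, 7, and 8. Libraries 5 and 6 did not differ beyond counting error, and the gap to library 7 was 3.15-fold (log2 1.66, 95% interval 1.60 to 1.72). The share of cells with an Fcgr2b UMI was 71.1%, 70.7%, 35.6%, and 32.6%, and 36.4%, 35.6%, 12.7%, and 11.4% when each cell was thinned to 3000 UMIs, so that the order was the same at equal depth. The activating relative Fcgr3, with 48 UMIs in all, was at 0.41 and 0.42 CPM in libraries 7 and 8 and at 0.022 and 0.039 in libraries 5 and 6. Fcer1g, the signaling chain that activating Fc receptors share, was at 5.82, 5.29, 2.58, and 1.99.

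Fcrl1 and Fcrl5, the Fc receptor-like genes of the group, had narrower gaps than Fcer2a and Fcgr2b. Fcrl1 (chromosome 3, 87376387 to 87402934, plus strand) was at 37.4, 37.9, 19.1, and 18.0 CPM. Within both pairs, libraries 5 and 6 and libraries 7 and 8, its levels did not differ beyond counting error, and the gap was 1.96-fold (log2 0.97, 95% interval 0.86 to 1.08). Fcrl5 (chromosome 3, 87435773 to 87500678, plus strand), known from marginal zone and B-1 cells, was at 192, 174, 95.6, and 82.2. All 4 libraries were apart beyond counting error, and the gap was 1.82-fold (log2 0.86, 95% interval 0.81 to 0.91). Fcrl5 remained in 60.3% and 54.5% of the cells of libraries 7 and 8, against 78.5% and 75.9% in libraries 5 and 6.

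Fcmr (chromosome 1, 130865669 to 130880791, plus strand) encodes the IgM Fc receptor and had the smallest gap of the 10 genes. Its level was 88.8, 82.0, 49.1, and 52.9 CPM in libraries 5, 6, 7, and 8. The gap was 1.55-fold (log2 0.63, 95% interval 0.56 to 0.70), and 57.9% of all tested genes had a smaller one. The share of cells with an Fcmr UMI was 37.5%, 35.0%, 33.3%, and 33.9% in the 4 libraries, and the positive cells held 2.53, 2.57, 1.67, and 1.78 UMIs on average. At 3000 UMIs per cell, the shares were 18.2%, 16.8%, 12.6%, and 13.1%. Without thinning, the libraries thus differed less in the share of positive cells than in the UMIs that a positive cell held, and at equal depth they differed in the share as well. Ighm, the IgM heavy chain whose product the receptor binds, was at 3672, 4105, 1915, and 1516 CPM.

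Among the 4 inhibitory receptors of the group, Pirb had the largest gap. Pirb (chromosome 7, 3711409 to 3720391, minus strand) encodes PIR-B, an ITIM receptor for MHC class I. It was at 15.7 and 18.2 CPM in libraries 5 and 6 and at 1.10 and 1.25 in libraries 7 and 8. The gap was 12.6-fold (log2 3.66, 95% interval 3.27 to 4.07), and the share of cells with a UMI was 14.3%, 17.1%, 1.23%, and 1.42%. Its near-identical activating relative Pira2, with which reads can be shared, likewise had libraries 7 and 8 lowest, at 3.26, 2.89, 0.063, and 0.153 CPM. The levels of Pirb are uncertain to the extent that reads were shared. The MHC class I genes had a narrower gap. B2m, the light chain, was at 598, 610, 286, and 268, and H2-K1 was at 535, 575, 418, and 391.

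Siglecg and Cd22 encode Siglec-G and CD22, ITIM receptors that bind sialic acids. Siglecg (chromosome 7, 43408204 to 43418358, plus strand) was at 192, 207, 39.7, and 38.6 CPM, and Cd22 (chromosome 7, 30865402 to 30880342, minus strand) was at 140, 148, 62.7, and 60.7. In both genes libraries 7 and 8 did not differ beyond counting error, and library 6 was the highest. Siglecg had the wider gap, 4.83-fold (log2 2.27, 95% interval 2.21 to 2.34) against 2.24-fold in Cd22 (log2 1.16, 95% interval 1.10 to 1.22). A Siglecg UMI was found in 80.7%, 82.0%, 29.0%, and 28.1% of cells, and a Cd22 UMI in 68.5%, 71.6%, 45.4%, and 44.5%. Genes that make or carry their ligands did not all follow. Cmah, which turns sialic acid into the form that mouse CD22 prefers, was at 65.6, 68.2, 6.71, and 7.44, and St6gal1, which adds sialic acid in the linkage that CD22 binds, was at 11.7, 11.8, 4.95, and 4.82. Cd24a, a ligand of Siglec-G, had libraries 5 and 6 lowest, at 517, 521, 1083, and 1069.

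Cd72 (chromosome 4, 43446462 to 43454628, minus strand) encodes an ITIM receptor of the C-type lectin family. It was at 183, 166, 24.4, and 25.3 CPM in libraries 5, 6, 7, and 8. Libraries 7 and 8 did not differ beyond counting error, and the gap was 6.57-fold (log2 2.72, 95% interval 2.63 to 2.81). The share of cells with a UMI was 68.4%, 66.4%, 18.5%, and 19.5%. Sema4d, a ligand of CD72, likewise had libraries 7 and 8 lowest, at 36.1, 37.4, 6.13, and 6.42. The last 1000 bases of Cd72 overlap Tesk1 on the other strand. Tesk1 had libraries 5 and 6 lowest (11.6, 11.3, 19.0, and 17.9), and no source used here states that the counting used strand.

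Ptpn6 (chromosome 6, 124720707 to 124738714, minus strand), the phosphatase SHP-1, was at 292, 281, 115, and 105 CPM. All 4 libraries were apart beyond counting error, and the gap was 2.44-fold (log2 1.29, 95% interval 1.25 to 1.33). It was found in 88.7%, 87.7%, 60.1%, and 57.6% of cells. The related phosphatase Ptpn11 (SHP-2) had libraries 5 and 6 lowest, at 28.0, 28.1, 45.6, and 44.7. Inpp5d, the partner of FcγRIIB, was at 41.9, 41.5, 17.9, and 17.8, and Lyn was at 156, 155, 102, and 94.4. On the scale of single cells, the cells of libraries 5 and 6 held UMIs of a median of 5 and 6 of the 10 genes, and those of libraries 7 and 8 of 3. At 3000 UMIs per cell, the expected numbers were 2.92, 2.87, 1.18, and 1.11.

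Related genes outside the 10 were counted by the same rule. Of 12 other Fc receptors and Fc receptor-like genes, 7 had at least 100 UMIs and 3 had a gap of at least 2-fold with libraries 7 and 8 lowest. Fcrla, an intracellular relative of the Fcrl genes, had the largest at 170, 169, 8.06, and 8.17 CPM, and Pigr the smallest at 1.94, 1.49, 2.26, and 1.86. Of 15 other inhibitory receptors, 7 were tested and 4 had the gap with libraries 7 and 8 lowest, Clec12a (89.9, 88.4, 5.01, and 5.34) among them. Lair1, with 49, 54, 0, and 0 UMIs, had a gap of at least 15.9-fold against the floor of 3 UMIs per library, so that it cannot be ranked against Clec12a at 16.6-fold. Pdcd1 (0.47, 0.76, 1.24, and 0.77) had the smallest gap of the list. Of 16 inhibitory effectors and their kinases, 14 were tested and 6 had the gap, 5 with libraries 7 and 8 lowest and 1 with libraries 5 and 6 lowest. In that list Dok3, an adaptor that damps B cell receptor signals, was at 45.3, 46.6, 6.49, and 6.37, whereas its relative Dok1 was level at 20.3, 21.4, 20.3, and 19.8. Of 15 ligands, partners, and processing enzymes, 14 were tested and 7 had the gap, 6 with libraries 7 and 8 lowest and 1, Cd24a, with libraries 5 and 6 lowest. The background of these counts is the share of all tested genes with a gap. It was 13.6% with libraries 7 and 8 lowest, 12.3% with libraries 5 and 6 lowest, and 25.9% for any pair. These lists too were chosen with earlier results of these data known, so that the counts are descriptions.

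Relative to a spread in proportion to cell totals, the UMIs of Fcmr and Cd72 lay on fewer cells than those of most other members. If the UMIs of a gene fell on cells in proportion to the cells' totals, 56.8%, 54.9%, 41.0%, and 43.2% of cells in libraries 5, 6, 7, and 8 would hold an Fcmr UMI, a comparison added after the values were seen. Observed were 37.5%, 35.0%, 33.3%, and 33.9%, which is 0.660, 0.638, 0.811, and 0.786 of that share. For Cd72 the corresponding ratios were 0.855, 0.853, 0.787, and 0.800, and for Fcrl1 they were 0.950, 0.960, 0.961, and 0.966. In libraries 7 and 8 Siglecg was close to Fcmr and Cd72, at 0.828 and 0.821, against 0.993 and 0.977 in libraries 5 and 6. Ptpn6 was at 0.974, 0.966, 0.870, and 0.874. Fcer2a was uneven in libraries 5 and 6 (0.697 and 0.706), and its 22 and 20 UMIs in libraries 7 and 8 were too few to tell.

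**Figure D3:**
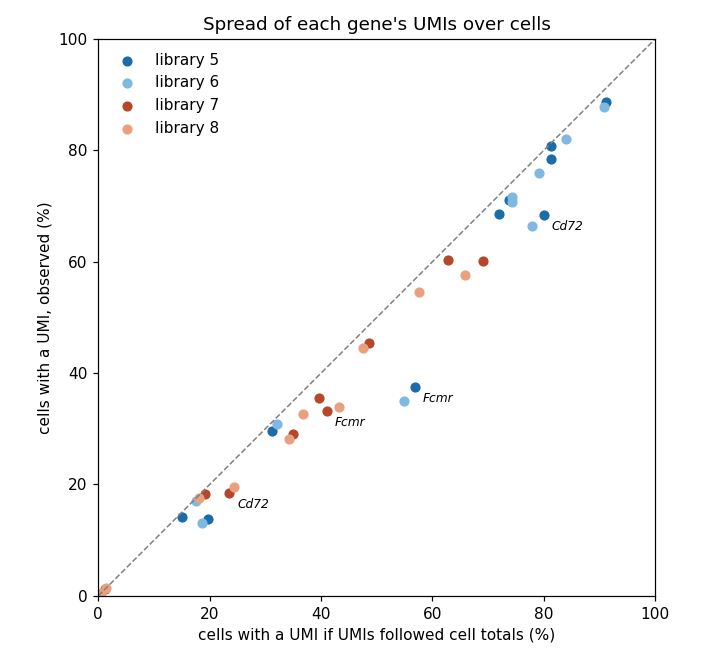
Share of cells with a UMI as observed (y axis, %) against the share if UMIs were spread in proportion to cell totals (x axis, %), for each of the 10 genes in each library. Points on the dashed line are even, and the points farthest below it are those of Fcmr in libraries 6 and 5, at 35.0% observed against 54.9% and at 37.5% against 56.8%.

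Cells with Fcmr also held more Cd72. Among cells that were neither rich in Jchain nor mitotic, those with at least 2 Fcmr UMIs (734, 782, 556, and 466 cells in libraries 5, 6, 7, and 8) were set beside those with 0, a split chosen after the correlations were seen. Cd72 was at 261 CPM in the first and at 150 in the second in library 5, at 248 and 137 in library 6, at 33.5 and 21.5 in library 7, and at 33.1 and 23.5 in library 8. The differences, 0.80, 0.86, 0.64, and 0.49 on the log2 scale, were above counting error in each library. Fcgr2b had the other direction in libraries 5 and 6, at 121 against 173 and at 127 against 167, and no difference beyond counting error in libraries 7 and 8 (log2 0.03 and -0.09). Siglecg likewise was lower in Fcmr-positive cells in libraries 5 and 6 (log2 -0.38 and -0.35) but not beyond counting error in libraries 7 and 8 (-0.02 and -0.12). Over cells, Pearson r of Fcmr with Cd72 was 0.28, 0.26, 0.07, and 0.09, the highest mean among the 45 pairs of members, and r of Fcmr with Fcgr2b was -0.15, -0.13, -0.0025, and -0.0027. Cells with at least 2 Fcmr UMIs were deeper, with median UMIs of 10201, 10296.5, 11348, and 11038 in libraries 5, 6, 7, and 8. Cells with 0 had 8083, 8177.5, 9835, and 9588, and the part of depth in these differences was not tested. Counts are also sparse, so that these values are descriptions.

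Genes most like each member over cells were sought among all genes found in at least 1% of the cells of each library, and named where they ranked in the first 3 by mean r and r was at least 0.1 in each library. For Fcmr this was Apoe, a lipid carrier (r from 0.124 to 0.151). Siglecg had Malat1 (0.159 to 0.162) and Vim (0.146 to 0.169), and Cd22 had Bcl11a (0.105 to 0.153) and Pou2f2 (0.125 to 0.141), transcription factors of the B lineage. Fcgr2b had Arhgdib (0.106 to 0.147). Cd72 had Il4i1, and Ptpn6 had Lmo2, Coro1a, and Actb. No gene met the rule for Fcer2a, Fcrl1, Fcrl5, or Pirb. Fcer2a was found in only 0.374% and 0.475% of the cells of libraries 7 and 8, and Pirb in 1.23% and 1.42%. The rule could therefore hardly be met for them, and it does not show that no gene is like them. In libraries 5 and 6, r of Fcer2a with Il4i1 was 0.147 and 0.177.

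Fcmr was also the member that was higher in Jchain-rich cells. Jchain encodes the chain that joins secreted IgM and IgA, and it marks plasma cells. Cells with at least 10 Jchain UMIs per 10000 numbered 20, 34, 50, and 26 in libraries 5, 6, 7, and 8, and 7, 9, 10, and 11 cells lay within a factor of 2 of that limit on either side. Fcmr was at 151, 175, 101, and 119 CPM in them, above the remaining nonmitotic cells in each library by 0.79, 1.15, 1.12, and 1.24 on the log2 scale, beyond counting error in all 4. Ptpn6 was lower in Jchain-rich cells in each library, by -1.92, -2.14, -1.19, and -1.99, again beyond counting error. Fcrl5 was lower too (-1.58, -1.91, -1.02, and -1.09). Siglecg was lower in libraries 5 and 6 (-1.75 and -2.83), and in libraries 7 and 8 its difference was within counting error (-0.48 and -0.33). The levels of these 4 genes in Jchain-rich cells rest on 10 to 75 UMIs each. They are relative to all UMIs of the cells, immunoglobulin and Jchain UMIs included. Jchain-rich cells that also passed the limit for mitotic cells, given below, were kept in the Jchain-rich class. Median UMIs were 10637.5, 11624.5, 11462.5, and 10509 in Jchain-rich cells and 8505.5, 8536, 10147, and 9864 in the remaining nonmitotic cells. The part of depth, of immunoglobulin and Jchain UMIs, or of mitotic cells in these differences was not tested.

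Mitotic cells, with at least 5 UMIs of 10 mitotic genes per 10000 and not Jchain-rich, numbered 286, 367, 363, and 302. Fcgr2b was lower in them in each library (log2 -0.60, -0.67, -0.35, and -0.42), and so was Ptpn6 (-0.26, -0.23, -0.60, and -0.50). Fcmr was higher in libraries 6, 7, and 8 (0.26, 0.57, and 0.48) and within counting error in library 5 (0.13). Fcrl5 was lower in libraries 5 and 6 (-0.63 and -0.68), higher in library 7 (0.18), and within counting error in library 8 (0.04). Siglecg (-0.60 and -0.43) and Cd22 (-0.27 and -0.32) were lower in libraries 5 and 6. In libraries 7 and 8, Siglecg (0.07 and 0.15) and Cd22 (-0.01 and -0.07) were within counting error. Of the cells, 162, 170, 346, and 217 lay within a factor of 2 of the limit. Mitotic cells were deeper, with median UMIs of 17257.5, 17650, 15246, and 15490.5. Cells neither mitotic nor Jchain-rich had 8505.5, 8536, 10147, and 9864, and the part of depth in these differences was not tested.

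Il10, the cytokine by which regulatory B cells are often recognized, was at 13.7, 11.1, 255, and 253 CPM. Within each library, only cells that were neither rich in Jchain nor mitotic were compared. Those with at least 2 Il10 UMIs (112, 95, 2888, and 2048 cells) were set beside those with 0 (3617, 4021, 1572, and 1058). Fcgr2b was lower in the Il10 cells of each library, by -0.60, -0.60, -0.25, and -0.32 on the log2 scale, beyond counting error in all 4. Siglecg was lower in libraries 5 and 6 (-0.95 and -0.50) and higher in library 7 (0.33), whereas library 8 was within counting error (0.03). Cd72 was lower in libraries 7 and 8 (-0.50 and -0.69) and within counting error in libraries 5 and 6 (0.13 and 0.02). Ptpn6 was lower in libraries 7 and 8 (-0.29 and -0.34) and within counting error in libraries 5 and 6 (-0.04 and -0.06). Fcrl1 and Fcrl5 were within counting error in all 4. Cd22 was lower in libraries 6, 7, and 8 (-0.21, -0.20, and -0.14) and within counting error in library 5 (-0.14). Fcer2a (-0.69 and -0.64) and Pirb (-0.74 and -0.96) were lower in libraries 5 and 6. Both were within counting error in libraries 7 and 8, where their UMIs were few. Fcmr was lower in library 7 (-0.16) and within counting error in libraries 5, 6, and 8. Ms4a1, a B cell marker outside the group, was lower in library 8 (-0.69), as Cd72 was. It was within counting error in libraries 6 and 7 (-0.02 and -0.06) and higher in library 5 (0.10). Cells with Il10 were deeper, with median UMIs of 11952, 13090, 10726, and 10557 against 8362, 8393, 9416, and 9034, and the part of depth in these differences was not tested.

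**Figure D4:**
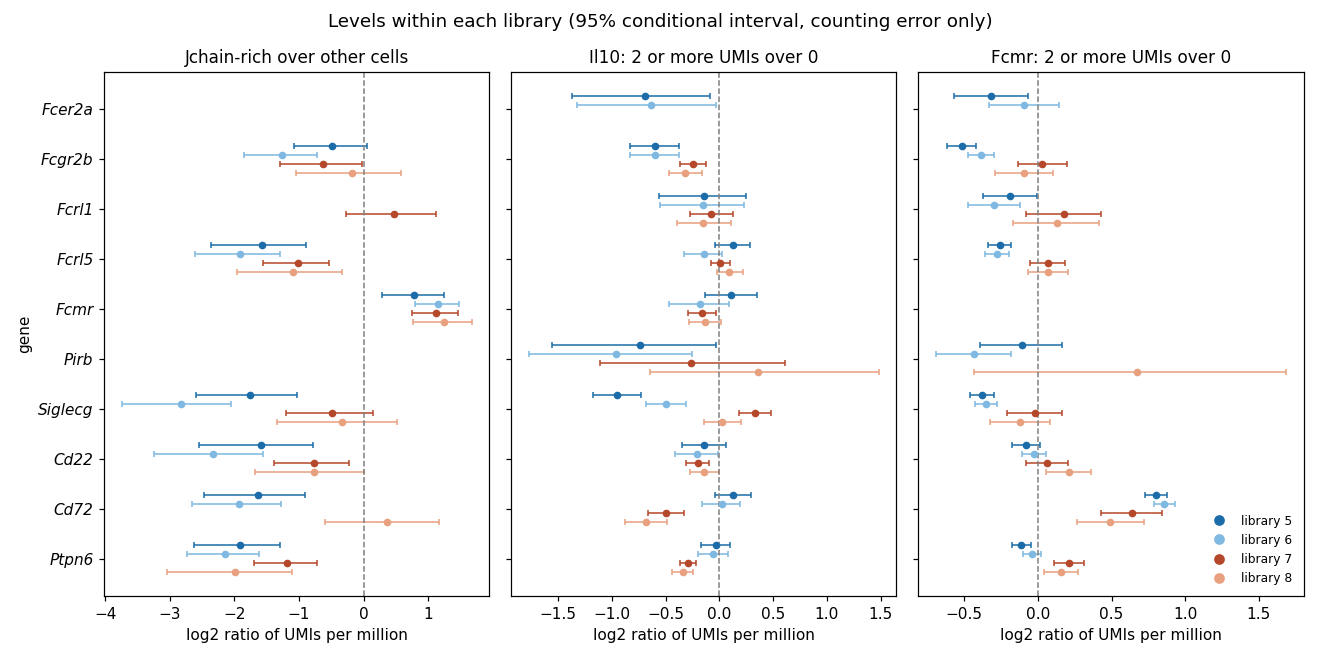
Log2 ratio of the level of each gene (CPM) within each library, for Jchain-rich over other cells (left), cells with at least 2 over 0 Il10 UMIs (middle), and cells with at least 2 over 0 Fcmr UMIs (right), with 95% conditional intervals that cover counting error only; ratios with fewer than 10 UMIs on a side are left out. Jchain-rich cells over the mitotic limit count as Jchain-rich and are in the left panel. All other mitotic cells are in no panel, and Jchain-rich cells are not in the middle and right panels. Fcmr lies above 0 in Jchain-rich cells of all 4 libraries, Fcgr2b below 0 in Il10 cells of all 4, and Cd72 above 0 in Fcmr cells of all 4.

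Libraries 7 and 8 were the 2 lowest for all 10 genes in the cells that remained without the Jchain-rich and mitotic cells, where 7 genes had a gap of at least 2-fold, and without the cells that held at least 2 UMIs of other cell types' markers, where 7 did. That filter removed 1775 and 1417 cells of libraries 7 and 8, mainly through Hbb-bt. The mitochondrial share moved with the order: with the limit at 5% in place of 10%, only 143 and 207 cells of libraries 5 and 6 remained, and 5 genes had the gap, Cd22 falling to 1.5-fold and Ptpn6 to 1.98-fold. No class of cells that should lack these genes was present, so the share of cells that free RNA alone gives was not measured.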

How the data were processed

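The deposited values are whole UMI counts per gene and cell that the authors made with Cell Ranger (version 3.1.0) on mm10 from 10x Genomics Chromium Single Cell 3' v3 libraries. According to the methods of the study, reads were counted against Ensembl 93 genes and the libraries were combined with a step that evens out depth, so that differences in depth between the libraries as sequenced are not in the counts. The 19920 barcodes were assigned in order to the last columns of the table, and 16069 columns before them carry no barcode and were not used here.

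Cells with at least 1000 genes and under 10% mitochondrial UMIs were kept, and doublets were not called. UMIs were summed per library and divided by all UMIs of the library (CPM). SciPy (version 1.17.1) gave the intervals at 95%, which are exact Poisson ones for levels and exact conditional ones for ratios. They cover counting error only, since variation between mice or cultures could not be measured. Differences were called beyond counting error where the interval excluded 0. No p-values were computed. A floor of 3 UMIs was used in the gap rule, which was checked on simulated counts. Shares at equal depth are the exact expectation when each cell with at least 3000 UMIs is thinned to 3000. Promoters were found for all 10 genes.

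The members and gene lists were chosen with earlier results of these data known. Genes outside the 10 were named where they had the largest or smallest gap of a list, share reads or an interaction with a member, or met the correlation rule. Ighe, B2m, H2-K1, Fcgrt, Pira2, Tesk1, and Hbb-bt were named after their values were seen. Positions are from GENCODE vM21 on GRCm38, a later release than the one used for counting. Scaling alternatives used edgeR (version 4.0.16) and DESeq2 (version 1.42.0).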

Additional observations from a re-analysis of the deposited data

How the results depend on the processing

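The number of the 10 genes with a gap of at least 2-fold was 7. It was 9 when mitochondrial, ribosomal protein, and immunoglobulin UMIs were left out of the totals, 8 with edgeR TMM or DESeq2 median-of-ratios scaling, and 5 with the mitochondrial limit at 5%. It was 10 at a limit of 1.5-fold and 5 at 3-fold, and 7 under each of the other alternatives of scaling and cells. The share of all tested genes with a gap was 44.8% at a limit of 1.5-fold and 12.9% at 3-fold, and between 20.4% and 27.7% otherwise. Libraries 7 and 8 were the 2 lowest in all 10 genes under each of the 13 alternatives of scaling and cells. One of these, in which Hbb-bt was left out of the other cells' markers, was added after the data were seen. The gap of Fcrl5 ranged from 1.34-fold to 2.05-fold and that of Fcrl1 from 1.69-fold to 2.23-fold. Of 480 levels recomputed, 345 stayed within the counting interval of the reported value. Where a value moved, the cause was not tested.

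No paired analysis was possible because the barcodes name no sample and no test was made. Leaving out a library could not be applied, since the gap rule needs all 4. Genes with few UMIs limit what the depth can show, as for Fcer2a in libraries 7 and 8 with 22 and 20 UMIs and Pirb with 70 and 57.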

Other observations

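Fcrla, which had the widest gap among the other Fc receptor-like genes, was higher in Jchain-rich cells than in the remaining nonmitotic cells of each library, by 1.05, 0.76, 2.15, and 2.33 on the log2 scale in libraries 5, 6, 7, and 8, beyond counting error in all 4. It thereby had the direction of Fcmr in these cells, and that of neither Fcrl5 nor Ptpn6. In libraries 7 and 8, its levels in Jchain-rich cells rest on 25 and 15 UMIs. In mitotic cells Fcrla was higher in libraries 5 and 6 (0.25 and 0.35), within counting error in library 7 (-0.46), and lower in library 8 (-0.72).

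Il7r, the interleukin 7 receptor, was at 48.2 CPM in cells with at least 2 Fcmr UMIs and at 14.1 in cells with 0 in library 5, and at 57.3 and 16.8 in library 6. In library 7 it was at 4.28 and 5.21 and in library 8 at 5.14 and 4.83, within counting error in both. Ighd, the IgD heavy chain, was higher in Fcmr-positive cells of each library (log2 0.64, 0.71, 0.84, and 0.31). Both genes were chosen after their correlations with Fcmr were seen.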
